A study of Mus musculus with 4 samples.

Results

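Proteasome genes were examined in TKPTS cells, a mouse cell line of the renal proximal tubule, after hypoxia and reoxygenation. The genes were chosen by symbol, as all symbols that begin with Psma, Psmb, Psmc, Psmd, Psme, Psmf or Psmg and a digit, and the interferon-induced *Psmb8*, *Psmb9* and *Psmb10* were left out. This gave 48 of the 22063 genes listed. They were grouped into 8 genes of 20S alpha subunits, 8 of 20S beta subunits, 6 of 19S ATPase subunits, 11 of 19S non-ATPase subunits, 6 of activators or inhibitors and 7 of assembly chaperones, and 2 genes, *Psmc3ip* and *Psme3ip1*, share the name but are not known as subunits. *Psmd5*, *Psmd9* and *Psmd10*, named as 19S subunits, were placed with the assembly chaperones, as their products leave the finished particle.

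Expression was measured by RNA-sequencing in 2 libraries with a scrambled siRNA (si-NC, replicates 2 and 3) and in 2 with an siRNA to *Itgb6* (si-*Itgb6*, replicates 1 and 3). Values are given in this order of replicates throughout. The labels give the genotype as WT for the former and as *Itgb6* knockdown for the latter. Cells of all libraries were kept in 1% O2 for 24 h and then in normal oxygen for 12 h, so no library shows the cells without hypoxia. The question put to these libraries was which transcripts differ once *Itgb6*, the gene of an integrin beta subunit, is targeted. The labels do not say whether the libraries of a group came from separate cultures, so p-values measure the spread between these libraries, which may be technical.

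The totals were 15435074 to 17220281 estimated counts per library. Counts were rounded and tested with edgeR's quasi-likelihood test, 11727 genes passed its filter on low counts, and a gene was called at an unadjusted p under 0.05 with a fold change over 1.2, the thresholds of the study. CPM values are counts relative to the TMM-scaled total of the library. *Itgb6* had 285 and 284 counts in si-NC against 279 and 260 in si-*Itgb6*, a log2 fold change of -0.0051 (95% interval -0.27 to 0.26; adjusted p = 0.991, edgeR, Benjamini-Hochberg). The target was thus not lower where it was meant to be silenced, and si-*Itgb6* below stands for the libraries labelled so. Of 8 proximal tubule markers 3 reached 1 CPM in every library, *Aqp1* and *Cubn* among them, while *Slc34a1*, *Slc5a2* and *Slc22a6* had 0 counts in all of them. The list summed to 28.6 and 33.0 CPM in si-NC and 44.0 and 44.1 CPM in si-*Itgb6*. Of 8 markers of renal epithelium 7 reached that level, with sums of 2974 and 3015 CPM in si-NC and 2814 and 2819 CPM in si-*Itgb6*. Of 5 leukocyte markers, *Cd68* and *Csf1r* reached it and *Ptprc*, *Adgre1* and *Itgam* had at most 6 counts; that list summed to 132 and 141 CPM in si-NC and 126 and 121 CPM in si-*Itgb6*. Endothelial and fibroblast markers summed to at most 4.72 CPM. The part of these markers in the results was not tested.

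The proteasome is the protease that degrades proteins marked with ubiquitin. Its 20S core is a barrel of alpha and beta subunit rings, in which *Psmb5*, *Psmb6* and *Psmb7* encode the catalytic subunits. The 19S particle at the ends of the barrel recognizes, unfolds and feeds in the substrates. The base of this particle holds a ring of ATPases and some non-ATPase subunits, and its lid holds further non-ATPase subunits. The subunits are made in matched amounts, and the transcription factor NRF1, encoded by *Nfe2l1*, is known to raise their genes together when the proteasome is short of capacity. Tubular cells rely on it for the turnover of damaged and regulatory proteins, among them the hypoxia-inducible factors in normal oxygen.

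Of the 48 proteasome genes, 45 passed the filter, and 43 of these were not called. *Psmb2* and *Psmd9* were lower in si-*Itgb6*, and 0 genes were called higher. Over all genes tested, 9.57% were called, with 5.2% lower and 4.37% higher, and 2 of 45 genes is 4.44%. The same pair had an adjusted p under 0.05, where 4.62% of all genes tested did (2.52% lower and 2.11% higher). At an unadjusted p under 0.05 alone, *Psmd3* joined the lower genes and *Psma5*, *Psmb7*, *Psmd11*, *Psmd12* and *Psme4* were higher; this was 8 of 45 genes, where 18.4% of all genes tested passed (9.62% lower and 8.8% higher). The median log2 fold change of the 45 genes was 0.024, against 0.00017 for all genes tested, and their values ran from -0.31 to 0.15.

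Most intervals were narrow. The 95% interval of the log2 fold change lay within a 1.2-fold change in either direction for 36 of the 45 genes (80%), against 27.7% of all genes tested. The median standard error was 0.060. The exceptions were the called pair, *Psma5* and *Psmd3*, whose intervals ended just beyond the bound at 0.27 and -0.27, and 5 genes of few counts, *Psmd10*, *Psmg2*, *Psmg3*, *Psmg4* and *Psmc3ip*. The comparison with all genes tested was not matched for counts, on which the width of an interval depends. The share within the bound was 90.3% in the 20S and 19S subunits, with 784 to 10200 counts. It was 28.6% in the assembly chaperones, with 168 to 1396 counts. Both libraries of a group lay outside the range of the other group in 16 of the 45 genes, lower in 6 and higher in 10, against 49.2% of all genes tested (25.4% lower and 23.8% higher).

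**Figure D1:**
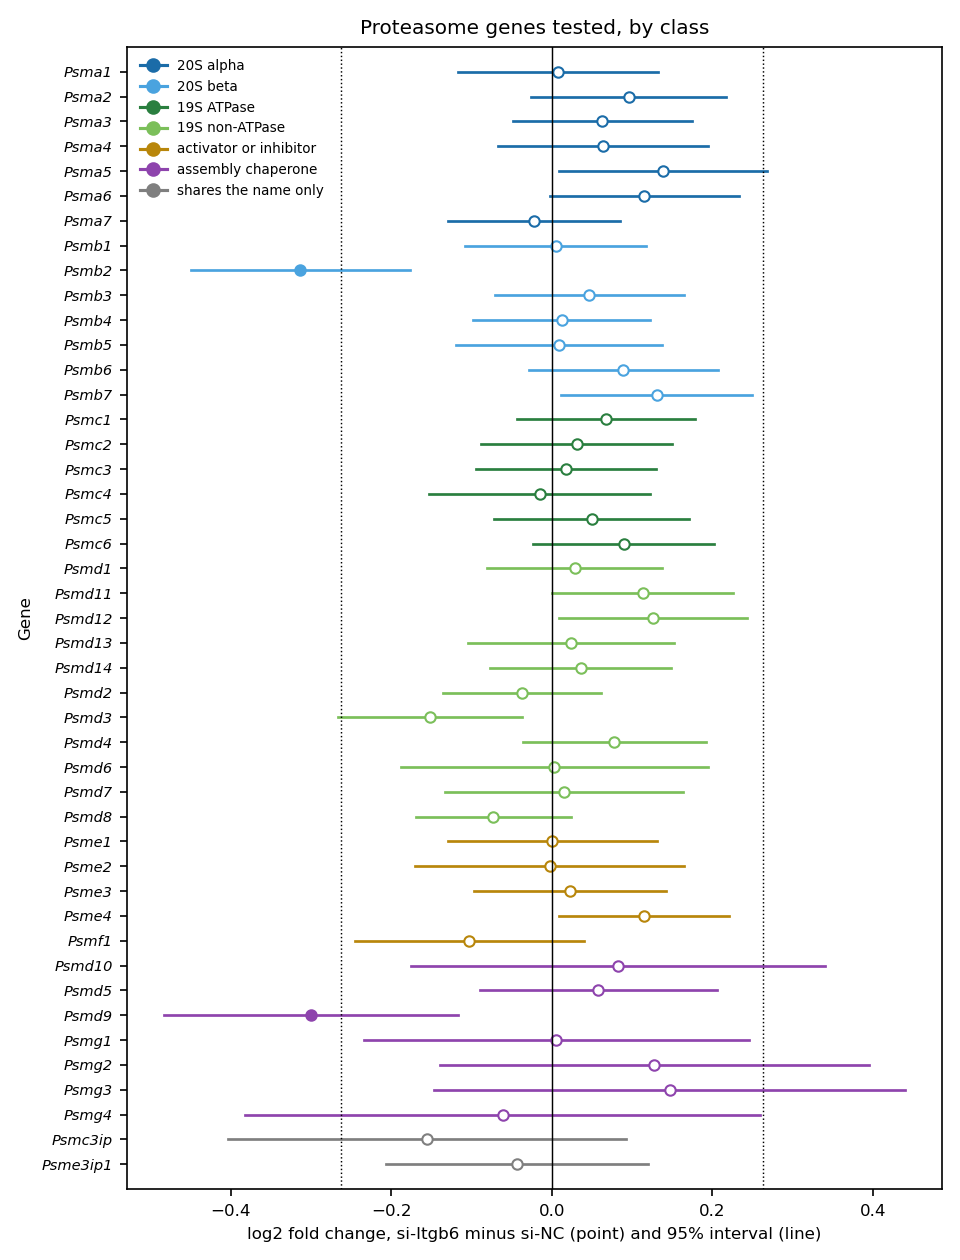
Log2 fold change of the 45 proteasome genes tested, libraries labelled si-Itgb6 minus si-NC, by gene (vertical axis) and class (colour). Points are estimates from edgeR, lines their 95% intervals, filled points the called genes *Psmb2* and *Psmd9*, and dotted lines a 1.2-fold change; the other 43 points lie between -0.15 and 0.15.

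*Psmb2* encodes the beta4 subunit, a non-catalytic member of the inner ring of the core. It lies on the plus strand of chromosome 4 from 126677630 to 126709714 (GRCm38). It had 2090 and 2231 counts in si-NC against 1525 and 1787 in si-*Itgb6*. Both si-*Itgb6* libraries were below both si-NC libraries, with the lowest value in si-*Itgb6* replicate 1. The level was 128.7 ± 0.719 CPM (SD, n = 2) for si-NC against 103.5 ± 7.08 CPM (SD, n = 2) for si-*Itgb6*, which was 1.24-fold lower. This gave a log2 fold change of -0.31 (standard error 0.067) and a 95% interval from -0.45 to -0.18 (adjusted p = 0.00397, edgeR, Benjamini-Hochberg). Its counts were whole in every library, and its exons overlapped those of no other gene in GENCODE vM21. Without si-*Itgb6* replicate 1 the log2 fold change was -0.25, below the 1.2-fold threshold, with an adjusted p of 0.0247 from edgeR. The adjusted p ranged from 0.000367 to 0.204 over all alternatives and was above 0.05 without si-NC replicate 2 or 3.

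*Psmd9* encodes p27, a chaperone that assembles the 19S ATPase ring and then leaves it. It lies on the plus strand of chromosome 5 from 123169413 to 123250131 (GRCm38), where its exons overlap those of *Gm26745* on the other strand, and without strand information reads of both cannot be told apart. It had 742 and 813 counts in si-NC against 566 and 636 in si-*Itgb6*. The groups did not overlap. The level was 46.3 ± 1.11 CPM (SD, n = 2) for si-NC against 37.6 ± 1.46 CPM (SD, n = 2) for si-*Itgb6*, which was 1.23-fold lower. This gave a log2 fold change of -0.30 (standard error 0.090) and a 95% interval from -0.48 to -0.12 (adjusted p = 0.0482, edgeR, Benjamini-Hochberg). Its adjusted p was 0.125 with DESeq2 and 0.154 without si-*Itgb6* replicate 1, where the log2 fold change of -0.26 was just under the fold threshold, and it ranged from 0.0327 to 0.331 over all alternatives.

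Among the 20S alpha subunits, which form the outer rings and the gate of the core, 7 of 8 genes were tested and 0 were called. Their median log2 fold change was 0.064, from -0.022 for *Psma7* to 0.14 for *Psma5*. *Psma5*, the alpha5 subunit, had 126.3 and 121.8 CPM in si-NC against 133.8 and 139.2 CPM in si-*Itgb6*. Its groups did not overlap, but the difference missed the adjusted threshold (adjusted p = 0.231, edgeR). *Psma7*, the alpha4 subunit, had 355.1 and 364.7 CPM in si-NC and 341.8 and 367.0 CPM in si-*Itgb6*, and its groups overlapped. *Psma8*, which encodes the alpha4 form of the testis, had 0 counts in all libraries, which allows at most 0.174 to 0.194 CPM by a limit of 3 counts, which covers counting error only.

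Among the 20S beta subunits 7 of 8 genes were tested, and *Psmb2* alone was called. The catalytic subunits were not called. *Psmb5*, the chymotrypsin-like subunit, had 2280 and 2443 counts in si-NC against 2108 and 2416 in si-*Itgb6*. Its estimated log2 fold change was 0.0088 with a 95% interval from -0.12 to 0.14, and the groups overlapped. *Psmb6*, the caspase-like subunit, had 3419 and 3578 counts in si-NC against 3265 and 3827 in si-*Itgb6*. Its estimated log2 fold change was 0.089 with a 95% interval from -0.029 to 0.21. *Psmb7*, the trypsin-like subunit, had 3470 and 3755 counts in si-NC against 3437 and 4097 in si-*Itgb6*. Its log2 fold change of 0.13, with a 95% interval from 0.012 to 0.25, had an unadjusted p of 0.0326 and an adjusted p of 0.218 (edgeR); its counts were not whole in any library and its exons overlap those of *Nek6* on the other strand. The log2 fold change of *Psmb7* was 0.033 after removal of the GC and length trends, 0.048 without si-*Itgb6* replicate 3 and 0.21 without si-*Itgb6* replicate 1. In CPM the si-*Itgb6* libraries were above the si-NC libraries for *Psmb6* and *Psmb7*. *Psmb11*, the thymic form of the chymotrypsin-like subunit, had 1 count in si-*Itgb6* replicate 3 and 0 counts in the other libraries.

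All 6 genes of the 19S ATPase ring, which unfolds the substrate, were tested and 0 were called. Their median log2 fold change was 0.041, between -0.015 for *Psmc4* and 0.090 for *Psmc6*, and all 6 intervals lay within a 1.2-fold change. *Psmc4* (Rpt3) had 110.5 and 118.2 CPM in si-NC against 109.3 and 117.0 CPM in si-*Itgb6*. *Psmc6* (Rpt4) had 290.4 and 285.2 CPM in si-NC and 291.2 and 321.1 CPM in si-*Itgb6*. The groups of *Psmc6* did not overlap, but si-*Itgb6* replicate 1 was close to the si-NC libraries.

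All 11 genes of 19S non-ATPase subunits were tested and 0 were called, with a median log2 fold change of 0.024. *Psmd3* (Rpn3), a subunit of the lid, was the lowest of them, with 285.4 and 270.0 CPM in si-NC against 239.3 and 260.7 CPM in si-*Itgb6*. The groups did not overlap, and its estimated log2 fold change was -0.15 (95% interval -0.27 to -0.037; adjusted p = 0.120, edgeR). After removal of the GC and length trends it was -0.073. *Psmd12* (Rpn5), also a subunit of the lid, was the highest. It had 3261 and 3536 counts in si-NC but 3289 and 3774 counts in the si-*Itgb6* libraries, a log2 fold change of 0.13 (95% interval 0.0098 to 0.24; adjusted p = 0.224, edgeR). *Psmd6* (Rpn7) had 979 and 991 counts in si-NC but 784 and 1101 in si-*Itgb6*. The si-*Itgb6* libraries of *Psmd6* lay on either side of si-NC, which gave a log2 fold change of 0.0035 and a standard error of 0.094, the highest in the class. *Psmd8* (Rpn12) had 601.4 and 590.6 CPM in si-NC and 572.9 and 560.7 CPM in si-*Itgb6*, lower in both libraries but by a log2 fold change of only -0.072 (adjusted p = 0.445, edgeR).

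Of the 6 genes of activators or inhibitors, 5 were tested and 0 were called. *Psme1*, which encodes the alpha subunit of the PA28 cap, had 127.2 and 130.0 CPM in si-NC against 124.8 and 132.6 CPM in si-*Itgb6*, a log2 fold change of 0.00088 (95% interval -0.13 to 0.13). *Psme4*, which encodes the PA200 cap, had 319.8 and 337.5 CPM in si-NC and 355.2 and 356.6 CPM in si-*Itgb6*. Its groups did not overlap, and its log2 fold change of 0.11 (95% interval 0.0094 to 0.22) missed the adjusted threshold (adjusted p = 0.222, edgeR). It was 0.066 once the GC and length trends were removed. *Psmf1*, which encodes the regulator PI31, had 93.8 and 100.5 CPM in si-NC and 90.8 and 90.3 CPM in si-*Itgb6*, a log2 fold change of -0.10 (95% interval -0.25 to 0.040). *Psme2b*, a copy of the PA28 beta gene, had 8 and 1 counts in si-NC against 7 and 4 in si-*Itgb6*, whole in no library, and was not tested.

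The 7 assembly chaperones, of which *Psmg1* to *Psmg4* build the alpha ring, were tested, and *Psmd9* was called. The other 6 were not called, and their log2 fold changes ran from -0.061 for *Psmg4* to 0.15 for *Psmg3*. *Psmg3* had 11.9 and 14.3 CPM in si-NC against 14.1 and 14.9 CPM in si-*Itgb6*, with groups that overlapped and a 95% interval from -0.15 to 0.44. *Psmd10*, or gankyrin, had 319 and 380 counts in si-NC against 304 and 401 in si-*Itgb6*. *Psmd5* had 1293 and 1387 counts in si-NC against 1259 and 1396 in si-*Itgb6*. With counts of 168 to 1396 per library, the standard errors of this class reached 0.16, and a change of 1.2-fold was within the interval of 5 of its 7 genes. The exons of *Psma4*, *Psma5*, *Psmb5*, *Psmc3*, *Psmd1*, *Psmd3*, *Psmd13*, *Psme1*, *Psme2b*, *Psmg3*, *Psmc3ip*, *Psme3ip1* and, outside the chosen genes, *Psmb8* also overlap those of another gene, so their counts are less certain. Of the genes that share the name only, *Psmc3ip*, whose product acts in meiotic recombination, had a log2 fold change of -0.15 (95% interval -0.40 to 0.093), with counts whole in no library, and *Psme3ip1*, whose product binds PA28 gamma, had -0.043 (95% interval -0.21 to 0.12).

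The 2 si-*Itgb6* replicates differed in the same direction across many proteasome genes. Between the 2 si-*Itgb6* libraries, 38 of the 45 genes had more CPM in replicate 3 than in replicate 1, with a median log2 difference of 0.099, while the median over all genes tested was 0.0020. The largest such difference was that of *Psmd6*, 0.40. Between the 2 si-NC libraries, 25 of the 45 genes had more CPM in replicate 3, with a median difference of 0.011. Without si-*Itgb6* replicate 1 the median log2 fold change of the 45 genes was 0.087 and 0 genes were called; without si-*Itgb6* replicate 3 the median was -0.032, with the called pair kept.

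Summed over all 48 genes, the level was 8267 and 8250 CPM in si-NC against 8146 and 8637 CPM in si-*Itgb6*. The si-*Itgb6* libraries lay on either side of si-NC, and the genes took 0.817% to 0.852% of the counts of a library. The 20S alpha genes summed to 1420 and 1408 CPM in si-NC and 1419 and 1515 CPM in si-*Itgb6*. The 20S beta genes summed to 1473 and 1471 CPM in si-NC and 1426 and 1559 CPM in si-*Itgb6*. For both, si-*Itgb6* replicate 3 was the highest library. The 19S ATPase genes summed to 1342 and 1345 CPM in si-NC and 1340 and 1439 CPM in si-*Itgb6*. The 19S non-ATPase genes summed to 2928 and 2914 CPM in si-NC and 2849 and 2982 CPM in si-*Itgb6*. The activators and inhibitors, at 807.2 and 812.7 CPM in si-NC and 824.3 and 842.5 CPM in si-*Itgb6*, were the class among these whose groups did not overlap, with a mean that was 2.89% higher. The class means were 810.0 CPM in si-NC and 833.4 CPM in si-*Itgb6*. *Psme4* alone rose from a mean of 328.6 to 355.9 CPM, while *Psmf1* fell from 97.2 to 90.5 CPM. Among all single genes tested, 49.2% had groups that did not overlap.

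**Figure D2:**
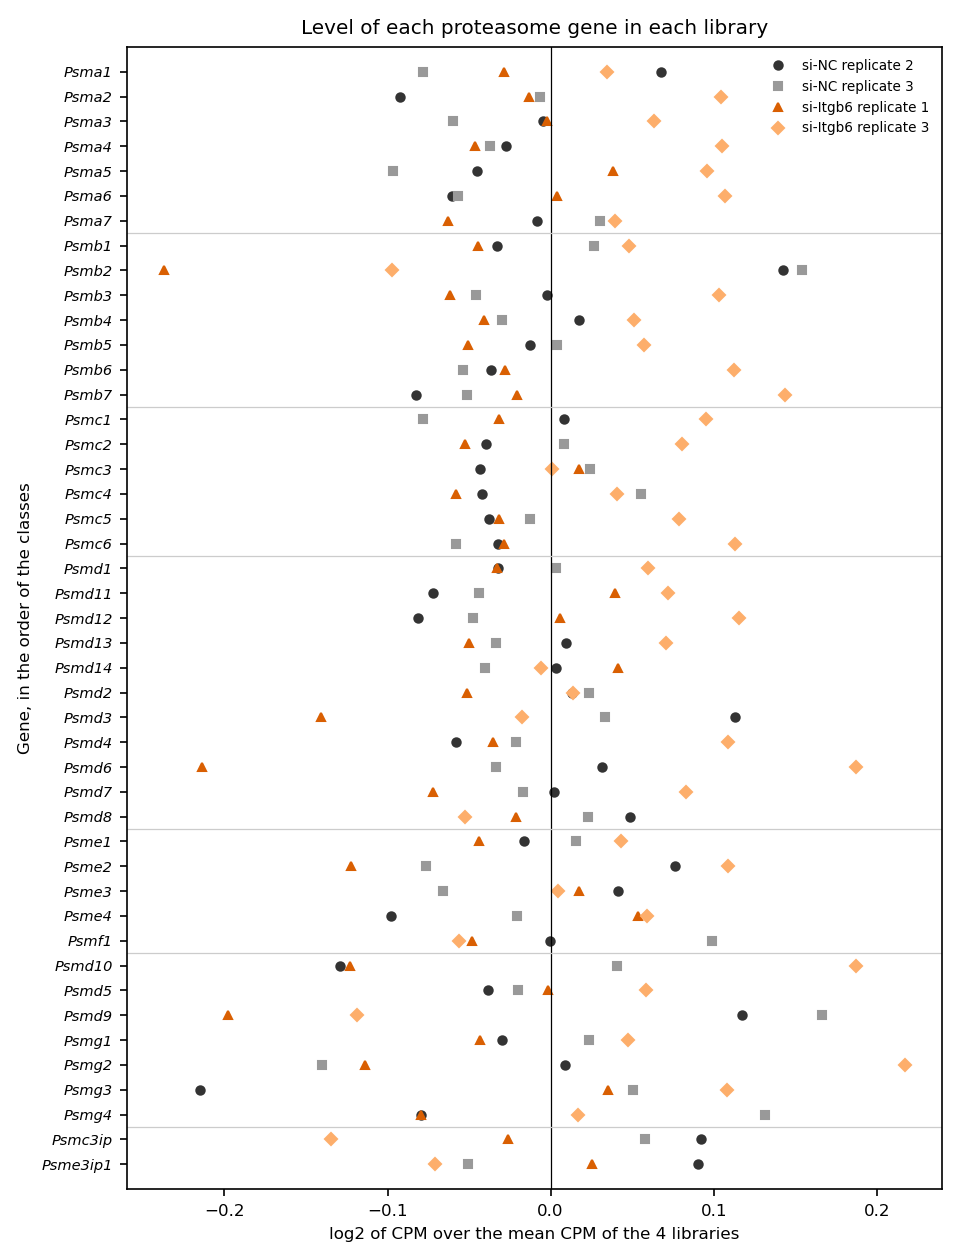
Level of the 45 proteasome genes tested in each of the 4 libraries, as log2 of CPM over the gene's mean CPM (horizontal axis), by gene in the order of the classes (vertical axis, grey lines between classes); each marker is 1 library. The light diamonds of si-Itgb6 replicate 3 lie to the right of the dark triangles of si-Itgb6 replicate 1 in 38 of 45 genes, while both lie left of si-NC for *Psmb2* and *Psmd9*.

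Levels of different genes were compared per length, with the FPKM values that the authors deposited. The mean FPKM over the 4 libraries of the 31 genes of 20S and 19S subunits tested ran from 42.3 for *Psmd6* to 416 for *Psmd8*, a ratio of 9.84, with a median of 146. The 20S beta genes had the narrowest range of the subunit classes, from 135 FPKM for *Psmb2* to 326 FPKM for *Psmb3*, a ratio of 2.41. The 19S ATPase genes ran from 79.0 FPKM for *Psmc4* to 215 FPKM for *Psmc1*, a ratio of 2.72. The 20S alpha genes ran from 83.3 FPKM for *Psma2* to 390 FPKM for *Psma7*, a ratio of 4.69. *Psmb2* had 150.1 and 150.8 FPKM in si-NC replicates 2 and 3 and 115.0 and 124.6 FPKM in si-*Itgb6* replicates 1 and 3. In si-NC it stood above *Psmb1*, at 138.8 and 144.1 FPKM, and in si-*Itgb6* below it, at 137.2 and 143.9 FPKM.

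The assembly chaperones had far lower levels per length than the subunits, from 14.98 FPKM for *Psmd10* to 22.3 FPKM for *Psmd5*, so the highest of them was below the lowest subunit gene tested. The activators and inhibitors lay within the range of the subunits, from 53.6 FPKM for *Psme4* to 116 FPKM for *Psme1*. The length behind an FPKM value, worked out from the count and the library total, was not the same in every library, and differed by over 5% between libraries in 7 of the 45 genes. For *Psmd5* it was 3132 and 3573 bases in si-NC replicates 2 and 3 and 3986 and 4017 bases in si-*Itgb6* replicates 1 and 3. So the FPKM of *Psmd5* was lower in si-*Itgb6*, with means of 24.0 in si-NC and 20.6 in si-*Itgb6*, while its CPM was not, with means of 79.8 and 83.1. For *Psme3ip1* the FPKM mean was higher in si-*Itgb6*, at 34.8 against 30.2, and the CPM mean was not, at 63.0 against 65.0. These values came with different lengths assigned per library, and no test was run on FPKM.

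**Figure D3:**
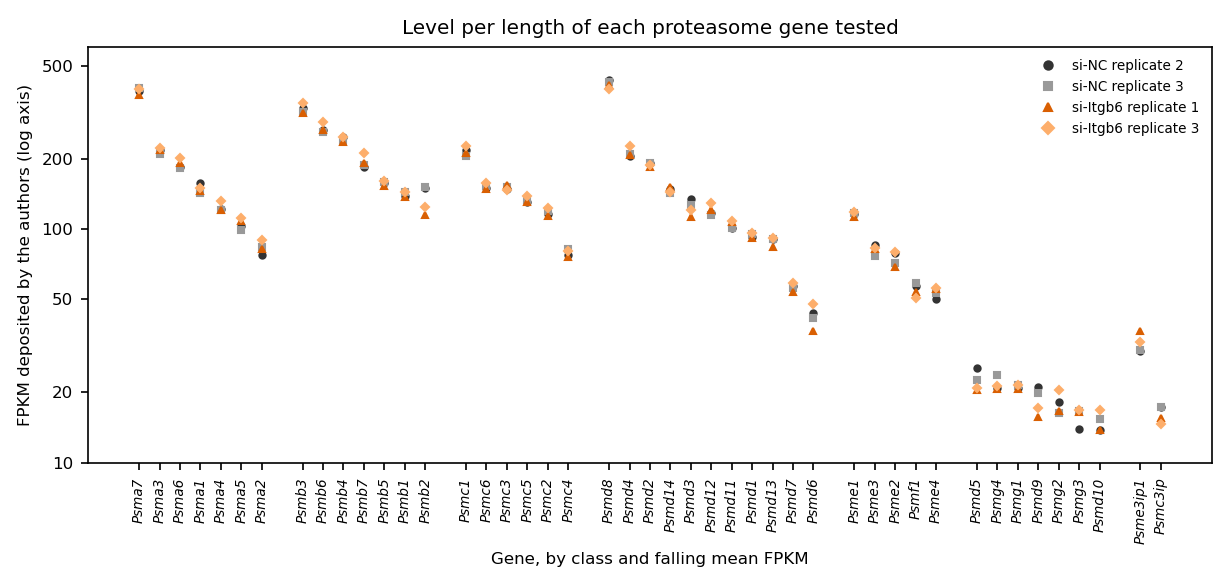
FPKM deposited by the authors (vertical axis, log scale) of the 45 proteasome genes tested, by class and falling mean (horizontal axis), with 1 marker per library. Subunit genes lie between 42.3 and 416 FPKM in the mean, and the assembly chaperones between 14.98 and 22.3 FPKM.

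The small differences of the members moved with base composition. Across the 45 genes, Spearman's rho between the log2 fold change and the GC content of the longest transcript, which ran from 37.0% to 57.4%, was -0.564; these genes were measured in the same 4 libraries and are no independent replicates, and over 11709 genes tested rho was -0.364. After the correction described next, rho across the 45 genes was 0.25. As measured, 33 genes had a log2 fold change above 0 and 12 below 0, where 50% of all genes tested were above 0. After each library was corrected for its trends with GC content and length, 23 were above and 22 below, and the median fell to 0.0049; 14 genes changed sign, among them *Psma7*, *Psmc4*, *Psmc6*, *Psmd6* and *Psmd10*. With library size as the only scaling 26 were above 0, and without si-*Itgb6* replicate 3 only 18 were, so no common direction is given for these genes. *Psmc6*, at 37.0% GC, shifted most, from 0.090 to -0.060. *Psmb2* and *Psmd9* remained called, with log2 fold changes of -0.34 (adjusted p = 0.00361, edgeR) and -0.28 (adjusted p = 0.0910, edgeR).

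**Figure D4:**
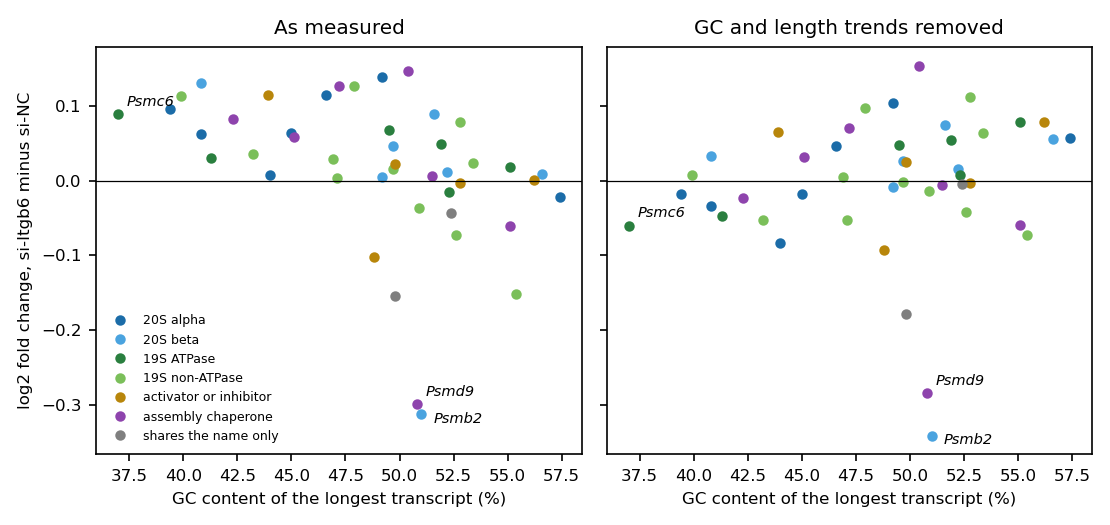
Log2 fold change of the 45 proteasome genes tested (vertical axis) against the GC content of their longest transcript in percent (horizontal axis), as measured on the left and after removal of the GC and length trends on the right; colours are classes. The downward trend on the left (rho -0.564) is a weaker upward one on the right (rho 0.25), where *Psmc6* is below 0, and *Psmb2* and *Psmd9* lie lowest in both.

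The interferon-induced subunits, which replace the catalytic subunits in immune cells, were outside the chosen genes. *Psmb8* had 369 and 432 counts in si-NC against 323 and 371 in si-*Itgb6*, with a log2 fold change of -0.13 and an adjusted p of 0.596 by edgeR. *Psmb10* had 216 and 205 counts in si-NC against 173 and 169 in si-*Itgb6*, with a log2 fold change of -0.23 and an adjusted p of 0.466 by edgeR. *Psmb9* had 50 and 58 counts in si-NC against 37 and 27 in si-*Itgb6*. It was called lower, with a log2 fold change of -0.68 and a 95% interval from -1.34 to -0.0074, but its adjusted p was 0.267 (edgeR) and its unadjusted p was above 0.05 in 5 of 12 alternatives. Its exons overlap those of *Tap1* on the other strand. All 3 genes had groups that did not overlap, as had 49.2% of all genes tested (25.4% lower). Per length they were low, with 21.6 FPKM for *Psmb8*, 8.88 FPKM for *Psmb10* and 1.99 FPKM for *Psmb9*, against 157, 269 and 194 FPKM for *Psmb5*, *Psmb6* and *Psmb7*.

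Other genes of the pathway were taken from 5 lists, with 40 genes in all, of which 39 were tested. Of these, 2 were called lower and 2 higher, which is 10.3%, near the 9.57% called over all genes tested, and their median log2 fold change was 0.0082. Of the 5 further subunits and assembly factors, among them the ubiquitin receptor gene *Adrm1* and the chaperone gene *Pomp*, 0 were called, and all 5 intervals lay within a 1.2-fold change. Of 11 tested genes of p97, the segregase that extracts ubiquitinated proteins, and its cofactors, 0 were called. Of 10 tested genes of proteasome-bound enzymes and shuttles, which bring ubiquitinated proteins to the proteasome, 1 was called lower. *Ubqln2*, a shuttle, had 338 and 361 counts in si-NC against 264 and 218 in si-*Itgb6*, with a log2 fold change of -0.46 and an adjusted p of 0.0401 by edgeR. *Ubqln2* was not called without si-*Itgb6* replicate 3, at -0.28. With all 4 libraries kept, its adjusted p by edgeR was 0.0516 and 0.0526 under the other scalings and 0.0909 after removal of the GC and length trends. With the other filters and the other edgeR tests it ranged from 0.0169 to 0.0337, and DESeq2 gave no adjusted p for this gene. The shuttles *Ubqln1*, *Ubqln4* and *Rad23b* were not called, with log2 fold changes of -0.16, -0.25 and -0.029.

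Of the 5 genes of ubiquitin and its activating enzymes, 1 was called, *Uba6*, where 9.57% of all genes tested were called. *Uba6*, the second activating enzyme beside *Uba1*, had 711 and 761 counts in si-NC against 876 and 919 in si-*Itgb6*. It was 1.28-fold higher, with a log2 fold change of 0.36 and standard error of 0.084 (adjusted p = 0.00874, edgeR). After removal of the GC and length trends it was 0.23 and not called. *Uba1* and the polyubiquitin gene *Ubb* had log2 fold changes of -0.040 and 0.0067.

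Of the 10 genes of the NRF1 axis, which covers NRF1, its relative NRF2, the proteins that process NRF1 and the NF-Y factors, 1 was called lower and 1 higher, where 9.57% of all genes tested were called, and nothing is read from so few genes about the axis. *Nfe2l2*, which encodes NRF2, had 794 and 935 counts in si-NC against 993 and 1024 in si-*Itgb6*, with a log2 fold change of 0.30 and an adjusted p of 0.0313 by edgeR. *Sel1l*, a part of the degradation machinery of the endoplasmic reticulum, had 961 and 842 counts in si-NC against 707 and 704 in si-*Itgb6*, with a log2 fold change of -0.28 and an adjusted p of 0.0693 by edgeR. Neither held in all fits: *Nfe2l2* was 0.22 without si-NC replicate 2 and, at 0.26, just under the fold threshold after removal of the GC and length trends, and *Sel1l* fell short of the threshold when si-NC replicate 2 (-0.14) or si-*Itgb6* replicate 3 (-0.23) was left out. *Nfe2l1* and *Uchl5* are named after their values were seen, as they had an adjusted p under 0.05 but missed the fold change threshold. *Nfe2l1* had 3965 and 3640 counts in si-NC against 2970 and 3254 in si-*Itgb6*. Its estimated log2 fold change was -0.22 (adjusted p = 0.0324, edgeR), -0.14 after removal of the GC and length trends and -0.11 without si-NC replicate 2. Its adjusted p rose to 0.273, 0.685 and 0.0608 after that removal, without that library and with DESeq2. *Uchl5*, a deubiquitinase of the 19S particle, had 1605 and 1706 counts in si-NC against 1722 and 2062 in si-*Itgb6*, with an adjusted p of 0.0231 by edgeR. Its log2 fold change of 0.26 became 0.13 with those trends removed and 0.18 without si-*Itgb6* replicate 3, and it passed the fold threshold under other alternatives, such as DESeq2.

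**Figure D5:**
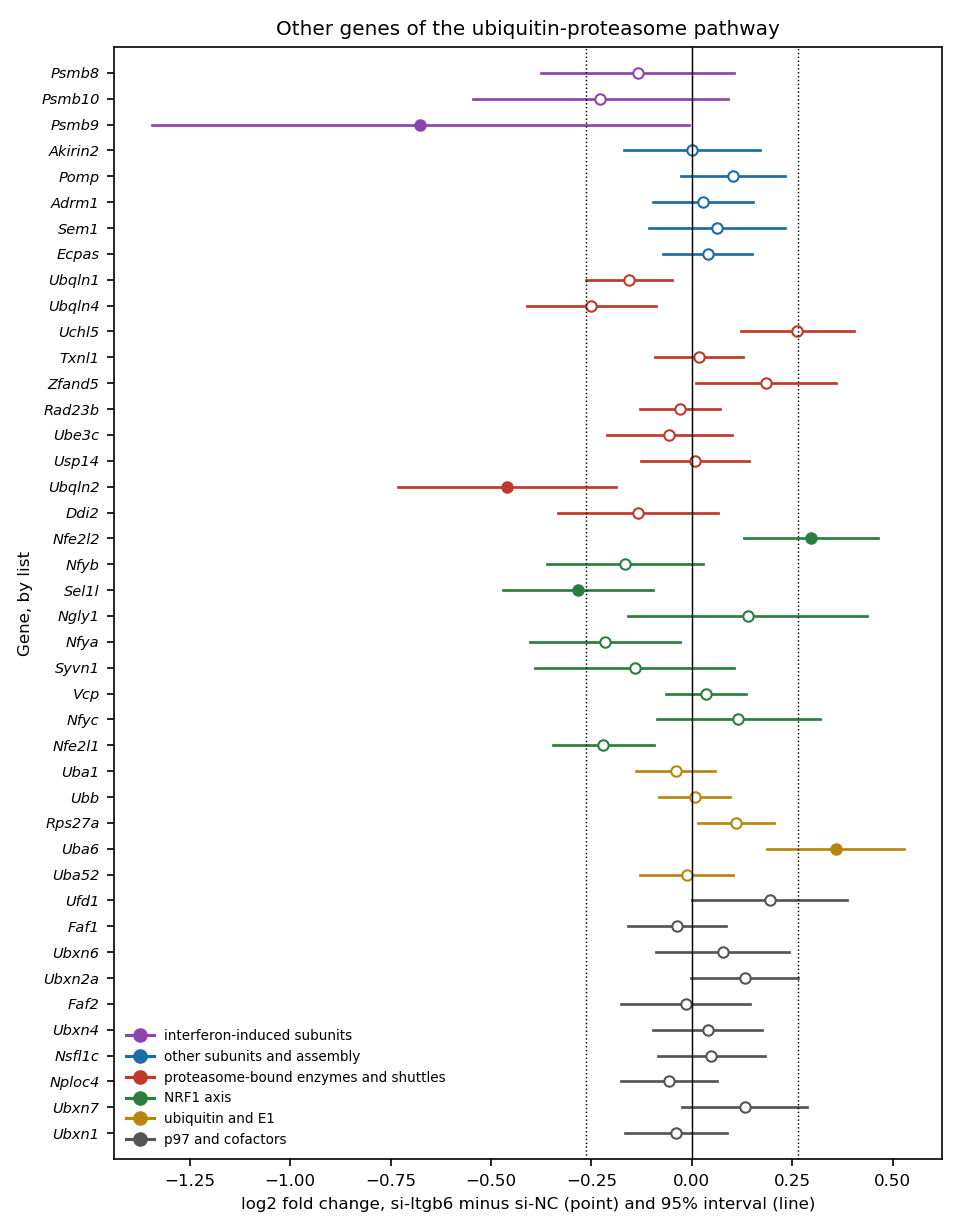
Log2 fold change of the 42 tested genes of the pathway lists, the interferon-induced subunits included, libraries labelled si-Itgb6 minus si-NC, by gene and list (vertical axis, colour). Points are edgeR estimates, lines 95% intervals, filled points the 5 called genes and dotted lines a 1.2-fold change; *Psmb9*, *Ubqln2* and *Sel1l* are filled on the left and *Uba6* and *Nfe2l2* on the right.

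Promoter windows from 250 bases before to 50 bases after the start were taken from RefSeq (GRCm38.p6) for 40 of the 48 proteasome genes. *Psma8*, *Psmb1*, *Psmb2*, *Psmb7*, *Psmc3*, *Psmd3*, *Psmd7* and *Psmg2* had no entry. The core of the antioxidant response element, TGACNNNGC on either strand, to which NRF1 and NRF2 are known to bind, was found in 6 of the 40 genes (15%), against 14.0% of all 27025 genes with a window. The NF-Y motif CCAAT on either strand was found in 15 of the 40 genes (37.5%), against 41.1% of all genes, and 0 genes had both. The first letters of the former are shared with the AP-1 site, which was not searched. The 30 bases around each match to the former are shown because *Nfe2l1* and *Nfe2l2* encode the factors that bind it. In the main fit *Nfe2l2* was called and *Nfe2l1* was not, and both results depend on the processing as given above. A further reason is that the 6 genes include *Psmd9* and the catalytic *Psmb5* and *Psmb6*. Capitals mark the motif, which in *Psme4*, *Psmc6* and *Psmd12* reads on the opposite strand. Each line is written 5′ to 3′ on the strand of the gene.
Psmd9: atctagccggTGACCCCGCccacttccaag
Psmb5: cgtgaagttgTGACGTCGCggcgttgccag
Psmb6: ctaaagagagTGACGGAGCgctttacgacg
Psme4: cgctgcggctGCAGCGTCAccagaagagcc
Psmc6: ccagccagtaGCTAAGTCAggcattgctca
Psmd12: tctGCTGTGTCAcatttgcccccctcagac
The windows lie at chr5:123228149-123228178 on the plus strand for *Psmd9*, chr14:54618023-54618052 on the minus strand for *Psmb5*, chr11:70525338-70525367 on the plus strand for *Psmb6*, chr11:30771758-30771787 on the plus strand for *Psme4*, chr14:45329587-45329616 on the plus strand for *Psmc6* and chr11:107479278-107479307 on the plus strand for *Psmd12*. Starts are those of RefSeq and differ from the gene starts of GENCODE, so that the *Psmd9* and *Psme4* windows lie within the GENCODE extent of these genes. The first base of the match lies 31 bases before the RefSeq start in *Psmd9*, 47 in *Psmb5*, 9 in *Psmb6* and 7 in *Psme4*, but 227 in *Psmc6* and 247 in *Psmd12*. Of these 6 genes 1, *Psmd9*, was called lower, where 9.57% of all genes tested were called (5.2% lower). Nothing is read from so few genes about the motif. The other 5 were not called, with log2 fold changes between 0.0088 and 0.13. The signs of some of these were not fixed, as *Psmc6* was -0.060 after removal of the GC and length trends and *Psmb5* was -0.0061 with library size as the only scaling. A match is a description of letters and not a site shown to be bound.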

How the data were processed

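The authors deposited, for each of the 4 libraries, estimated counts per gene that are not normalized and FPKM values. Libraries were polyadenylated, non-strand-specific and paired-end; the aligner, counting tool, build and annotation are not given in the sources used here. Estimated counts were rounded, filtered with filterByExpr (minimum count 10, minimum total 15), which left 11727 genes, scaled by TMM and compared by quasi-likelihood F tests (edgeR 4.0.16, R 4.3.3), and p-values were adjusted by the Benjamini-Hochberg method over these genes. DESeq2 1.42.0 was an alternative. A standard error is the log2 fold change over the root of its F value. The fits were tested on simulated data first. Coordinates, exon overlaps, GC content and lengths came from GENCODE vM21 (GRCm38), which may not be the authors' annotation; for the GC and length alternative, lowess trends (span 0.4) entered as offsets. FPKM entered no test. The genes, their classes, the lists and the motifs were chosen with earlier results of these data known. Named genes were *Itgb6*, members called or with an adjusted p under 0.05, the catalytic subunits, the members with the lowest and highest log2 fold change and mean FPKM of each class, members that share the name only or were not tested, *Psmb8* to *Psmb10*, and called genes of the pathway lists; others are named for context. Some genes are not reported here and are left out of the pathway lists. Totals, and so the sampling noise of counting, were alike in the libraries. Replicates differed by a chi-square of 3.15 (si-NC) and 4.00 (si-*Itgb6*) per gene, more than sampling noise. Over the 45 proteasome genes tested, the median absolute log2 difference between replicates was 0.047 in si-NC and 0.10 in si-*Itgb6*.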

Additional observations from a re-analysis of the deposited data

How the results depend on the processing

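The count of 2 proteasome genes called lower was the same under the other scalings, filters and tests tried, and ranged from 0 to 2 when 1 library was left out, with 0 only without si-Itgb6 replicate 1. It was 0 at a fold change over 1.5, and 1 for the core and 19S subunits alone, since *Psmd9* is a chaperone. The count called higher was 0 in all alternatives. The median log2 fold change ranged from -0.032 to 0.087 when 1 library was left out, and that of *Itgb6* from -0.10 to 0.091. Among the named genes as defined above, the sign turned for *Psma7* (0.058), *Psmc4* (0.0083), *Psmc6* (-0.060), *Psmd10* (-0.024) and *Psmd6* (-0.053) after removal of the GC and length trends. With library size alone it turned for *Psmb5* (-0.0061), *Psmd6* (-0.012) and *Psme1* (-0.014). Over all 45 proteasome genes tested, 33 were above 0 in the main fit and 26 with library size alone. The cause was not tested. Among the same named genes, leaving out 1 library gave values on both sides of 0 for *Psma7* (-0.072 to 0.028), *Psmb3* (-0.035 to 0.13), *Psmb5* (-0.044 to 0.061), *Psmc4* (-0.064 to 0.038), *Psmd10* (-0.080 to 0.23), *Psmd6* (-0.21 to 0.19), *Psme1* (-0.041 to 0.043) and *Psme3ip1* (-0.11 to 0.027). Many other proteasome genes tested did so too, such as *Psma1* (-0.061 to 0.081) and *Psmg4* (-0.16 to 0.053). These fits leave 1 library in a group, which is assumed to vary like the other group. Of the values of named genes other than *Itgb6*, 343 kept direction and call, 13 lost the call, 6 gained it and 22 turned sign. No paired analysis was possible because the groups share only 1 replicate number. With 2 libraries a group, differences below about 1.2-fold in the genes of few counts were not resolved.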
